A study of Mus musculus with 67 samples.

Results

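The cell cycle and DNA replication genes described here are 54 of the 3905 genes that the arrays measured with probes carrying a single gene symbol. They were chosen by symbol alone: those starting with Cdc and a digit, Cdk, Mcm, Cenp, Orc and a digit, Rfc, Pola, Pold, Pole, Rad and a digit or Top and a digit, and the cyclins starting with Ccna, Ccnb, Ccnd, Ccne, Ccng or Ccnt, with Cdc5l left out. They stood on 65 of the 8448 spots of an array, 44 genes with 1 probe, 9 with 2 and 1 with 3. No symbol starting with Pola or Ccnt was among them, and of those starting with Ccnb it was Ccnb1ip1 alone.

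Each of 67 C57BL/6 mice gave RNA of its cerebral cortex for a single array. Mice fed ad libitum (AL) were taken at 17 to 44 days (labelled 1 month, n = 10), 169 to 194 days (6 months, n = 10), 476 to 499 days (16 months, n = 10) and 704 to 743 days (24 months, n = 10). Mice on caloric restriction (CR) had regular feed for 13 weeks and in the end 60% of it, and were taken at 174 to 194 days (n = 9), 472 to 499 days (n = 10) and 673 to 743 days (n = 8). Both sexes were in every group, with 5 mice each except for 4 restricted males of 6 months and 3 of 24 months. Those 3 were all 673 days old, while the AL males of 24 months were 714 to 743 days old. In every comparison of diet at 24 months, diet and this difference in age cannot be told apart among males.

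Each value is a z-score within its array: how far a spot lies from the mean of all spots of that array, in SDs of those spots. A difference of 1 z is 1 such SD and not a fold change. Levels of different genes come from different probes, so they are set against 0 and not ranked against each other.

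A cell copies its DNA once in each division. The origin recognition complex and Cdc6 mark the origins and load the MCM helicase there, polymerases delta and epsilon copy the strands with a clamp that the Rfc loader places, and topoisomerases relieve the twist. Cyclin-dependent kinases with their cyclins order these steps and mitosis, and kinetochore proteins at the centromere carry the chromosomes apart. Adult cortical neurons do not divide, glial precursors and microglia divide slowly, and the weeks after birth are a time of glial proliferation. Several of these proteins also work outside division, in DNA repair, in transcription and in cell shape. In RNA from whole tissue, fewer cells of a type and less RNA per cell cannot be told apart.

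The promoters of 6 genes to which the results return are shown to make visible the elements that cell cycle genes are known for. They are the last 120 bases before the start of the gene, 5′ to 3′ on the gene's strand, from RefSeq (GRCm38.p6), with 2 motifs in capitals: CCAAT, the box bound by nuclear factor Y, and TTTGAA, the letters of the cell cycle homology region, each on either strand (ATTGG and TTCAAA). Mcm3 lies at chr1:20820313-20820432 (minus strand), Mcm5 at chr8:75109389-75109508 (plus), Cdk1 at chr10:69352913-69353032 (minus), Top2a at chr11:99024190-99024309 (minus), Cenpo at chr12:4233966-4234085 (minus) and Top3b at chr16:16870616-16870735 (plus).
Mcm3: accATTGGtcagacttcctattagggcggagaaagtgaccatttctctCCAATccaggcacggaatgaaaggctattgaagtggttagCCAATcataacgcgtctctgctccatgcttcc
Mcm5: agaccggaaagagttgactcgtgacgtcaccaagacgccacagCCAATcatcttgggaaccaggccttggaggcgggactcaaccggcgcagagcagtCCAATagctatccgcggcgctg
Cdk1: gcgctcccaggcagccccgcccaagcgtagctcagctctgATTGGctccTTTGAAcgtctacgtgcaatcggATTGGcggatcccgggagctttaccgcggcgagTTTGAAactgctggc
Top2a: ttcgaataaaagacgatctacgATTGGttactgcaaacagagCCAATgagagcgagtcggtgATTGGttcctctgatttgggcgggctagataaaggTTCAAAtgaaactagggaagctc
Cenpo: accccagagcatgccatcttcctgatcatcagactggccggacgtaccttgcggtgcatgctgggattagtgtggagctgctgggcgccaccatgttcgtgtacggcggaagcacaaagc
Top3b: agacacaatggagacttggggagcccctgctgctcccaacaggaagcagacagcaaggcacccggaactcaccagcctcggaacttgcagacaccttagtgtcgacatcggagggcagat

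In these windows the MCM genes held CCAAT, Cdk1 and Top2a held both motifs, and Cenpo and Top3b held neither. Promoters were on hand for 49 of the 54 genes, 57 in all, and were searched over the 250 bases before the start, as were all 32851 promoters of the table. CCAAT stood in 45.6% of the promoters of the 54 genes and in 33.8% of all promoters. TTTGAA stood in 8.77% and 16% respectively. One of the E2F letters TTTCCCGC, TTTGGCGC, TTTCGCGC and TTTGCCGC, which can overlap each other and were sought on both strands, stood in 14% and 1.86%. The 7 genes with such letters were Cdc25a, Cdc6, Cdk1, Mcm5, Orc1, Pole4 and Rfc3. A match of letters is a description of sequence and not a bound site.

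Most of these genes gave signals below the mean of all spots. The mean z over the 67 arrays was above 0, the mean of all spots, for 18 of the 54 genes (33.3%), against 1654 of the 3905 genes with a single symbol (42.4%). The median over the genes was -0.30 z, against -0.15 z over all 3905. The shares rested on how spots were scaled: with the median of each class of spots (the remainder of the spot number divided by 22) taken off within each array, 25 of the 54 genes (46.3%) and 45.8% of all 3905 were above 0. In the values as deposited, only the 18 genes above 0 entered the tests, and the same 18 did so in the adult arrays and in the AL arrays.

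**Figure D1:**
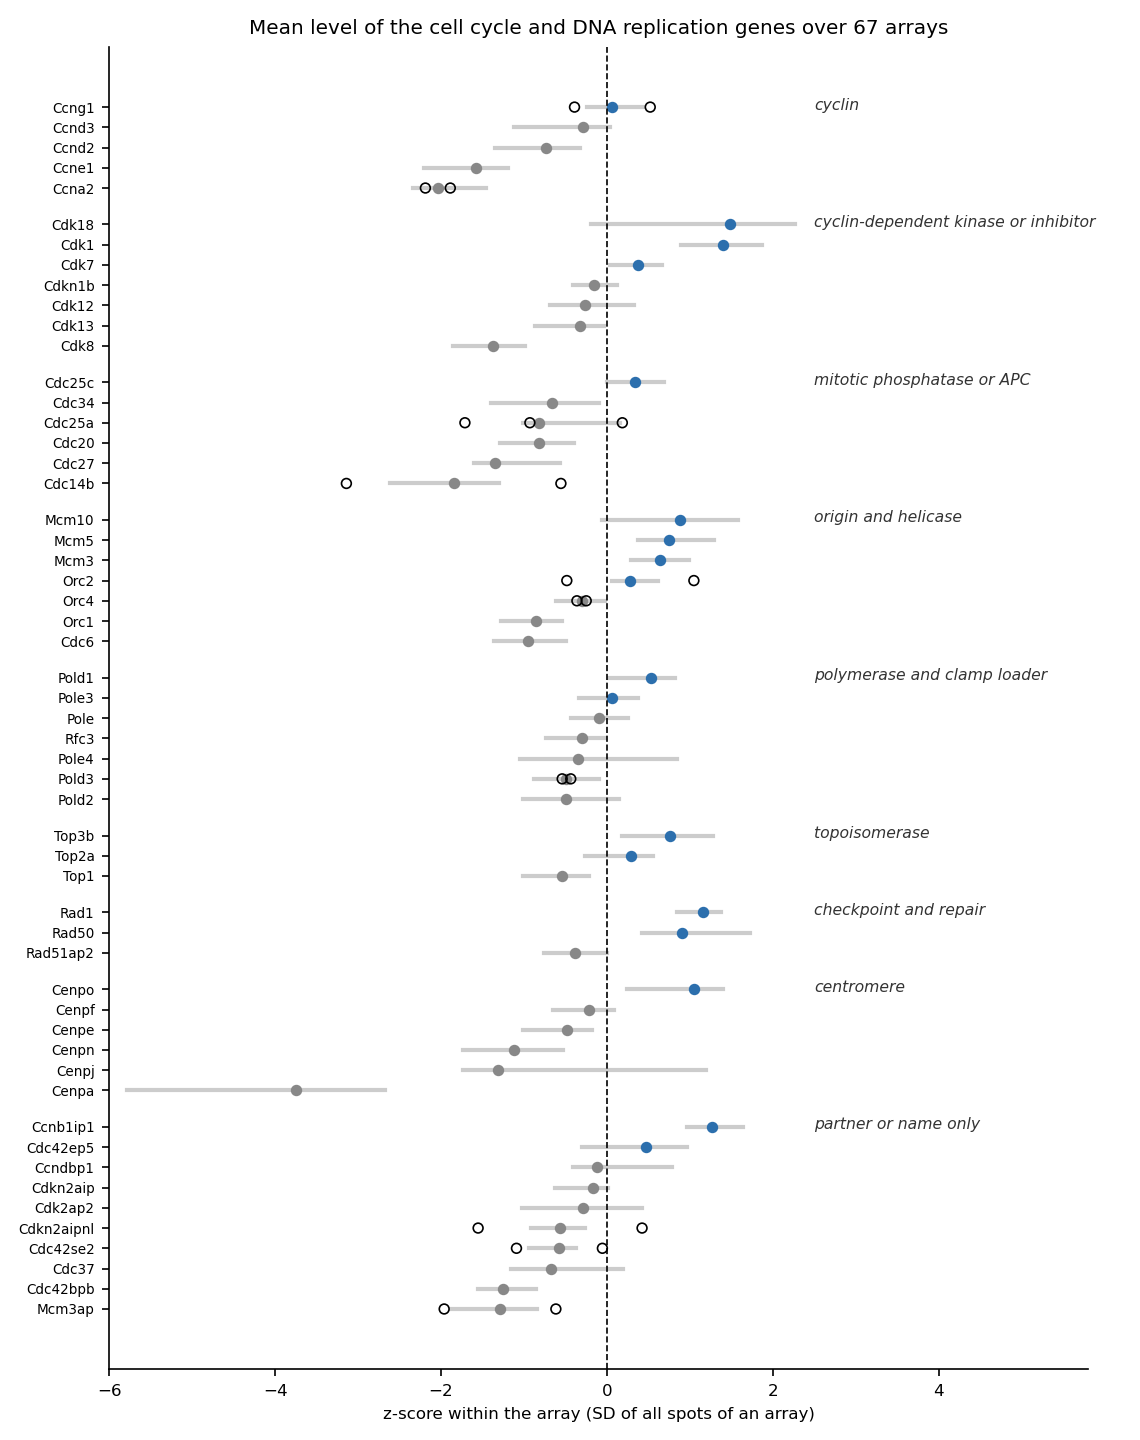
Mean z-score over the 67 arrays for each of the 54 genes, grouped by role; the grey line runs from the lowest to the highest array, open circles are the means of single probes where a gene has several, and blue marks the 18 genes above 0 that were tested. Polymerase and cyclin genes and those named Cenp (grouped as centromere) lay mostly below 0, and 4 genes had probes on both sides of it.

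Among the cyclins, 1 of 5 was above 0: Ccng1, a cyclin induced by DNA damage, with a mean of 0.0655 z. Ccnd2 and Ccnd3, the cyclins that start the cycle, lay at -0.73 and -0.29 z, and the cyclins of DNA replication Ccne1 and Ccna2 at -1.57 and -2.04 z. Of the cyclin-dependent kinases and their inhibitors, 3 of 7 were above 0. Cdk18, a kinase of the PCTAIRE family, had a mean of 1.48 z, Cdk1, the kinase of mitosis, 1.41 z, and Cdk7, which activates other kinases and serves in transcription, 0.38 z. Those below 0 were the transcriptional kinases Cdk8 (-1.37 z), Cdk12 (-0.26 z) and Cdk13 (-0.33 z) and the inhibitor Cdkn1b (-0.15 z).

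Of the phosphatases and ubiquitination genes of the cycle (Cdc14b, Cdc20, Cdc25a, Cdc25c, Cdc27 and Cdc34), 1 of 6 was above 0. This was Cdc25c, a phosphatase that activates Cdk1, with a mean of 0.34 z. Cdc20 and Cdc27, activator and subunit of the anaphase-promoting complex, lay at -0.82 and -1.35 z. Of the genes of origins and helicase, 4 of 7 were above 0: the helicase subunits Mcm5 (0.75 z) and Mcm3 (0.64 z), Mcm10 (0.88 z), which joins the helicase to the polymerases, and Orc2 (0.28 z). Orc1, Orc4 and the loader Cdc6 were below 0.

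Of the polymerase and clamp loader genes, 2 of 7 were above 0: Pold1, the catalytic subunit of polymerase delta (0.53 z), and Pole3, a small subunit of polymerase epsilon (0.0551 z). Of the 3 topoisomerases, 2 were above 0, Top3b, which acts on DNA and RNA, at 0.76 z and Top2a, the form of dividing cells that separates sister chromosomes, at 0.29 z. Top1, used in all cells, lay at -0.55 z. Of the 3 genes of checkpoint and repair, 2 were above 0. Rad1, part of the clamp that signals DNA damage, had a mean of 1.16 z, and Rad50, part of the complex that holds broken ends, 0.90 z. Rad51ap2 lay at -0.39 z. Of the genes named Cenp, 1 of 6 was above 0: Cenpo, a subunit of the inner kinetochore, at 1.04 z. The 6 include Cenpj, a centriole protein. Cenpa, the histone of centromeres, lay at -3.75 z. Of 10 genes that share only a name or bind one of the others, Ccnb1ip1, a ubiquitin ligase (1.27 z), and Cdc42ep5, an effector of the GTPase Cdc42 in cell shape (0.48 z), were above 0.

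Just inside the limit lay Pole3 with 0.0398 z and Ccng1 with 0.0723 z over the adult arrays. Just outside it lay Pole with -0.0882 z and Ccndbp1, a partner of D-type cyclins, with -0.119 z.

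Probes of a gene did not always give the same level. Of the 10 genes with several probes, 4 had probes on both sides of 0. The means of the 3 probes of Cdc25a, a phosphatase that drives entry into DNA replication, were 0.19, -0.93 and -1.71 z. The probes of Ccng1 lay at 0.52 and -0.39 z, those of Orc2 at 1.05 and -0.48 z and those of Cdkn2aipnl at 0.42 and -1.55 z. For Ccng1 and Orc2 the tested value is therefore the mean of a probe above 0 and a probe below it. The probes of Pold3, Orc4 and Ccna2 lay 0.104, 0.112 and 0.30 z apart.

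Between the arrays with running numbers 1 to 45 and those with 46 to 67, here the first and second set, the level of most of the tested genes stepped. At adjusted p under 0.05, by limma with the 14 groups as terms, 15 of 18 differed between the sets, 7 higher and 8 lower in the second. Over all rows tested the share was 72.4% (2613 of 3609). Cdk18 had a mean of 1.94 z in the 45 arrays of the first set and 0.55 z in the 22 of the second, a difference of -1.39 ± 0.0495 z (SE). Mcm10 went from 1.24 to 0.15 z and Cdc42ep5 from 0.74 to -0.055 z. In the opposite direction, Rad50 went from 0.70 to 1.30 z, Top3b from 0.61 to 1.07 z, Mcm5 from 0.62 to 1.03 z and Cdk1 from 1.27 to 1.68 z. Only Cdc25c, Rad1 and Pold1 did not pass. The sets cross all 14 groups, so every comparison below has the set as a term.

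**Figure D2:**
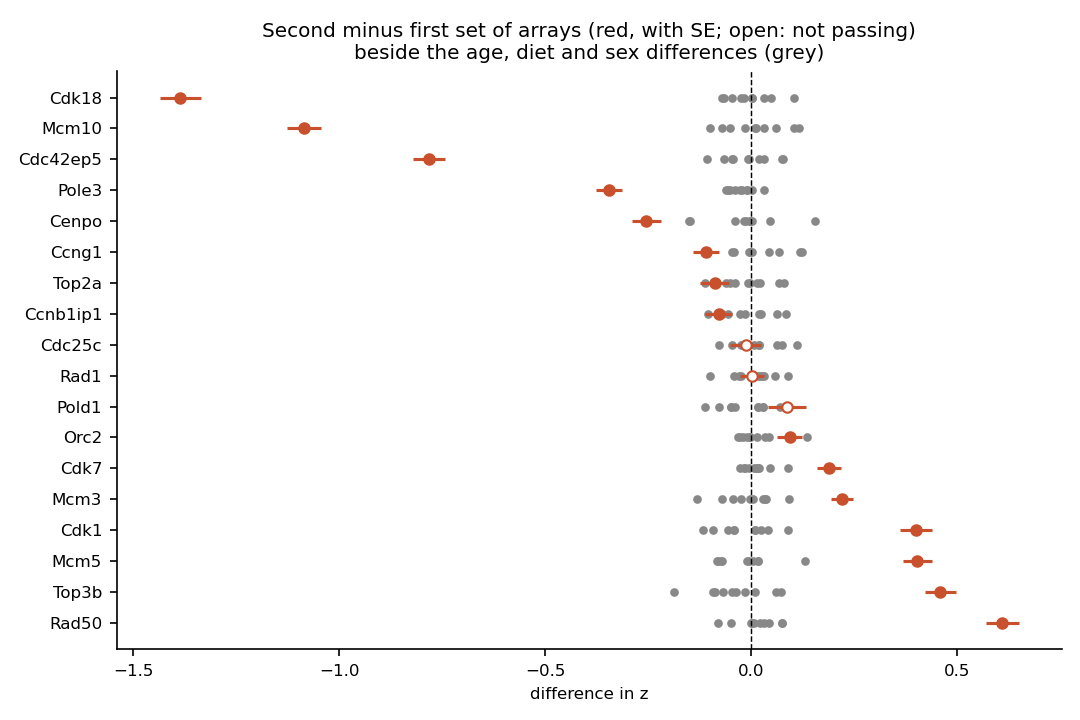
Difference in z between the second and the first set of arrays for the 18 tested genes (red, with SE; open circles did not pass), beside the 10 differences of age, diet and sex for the same genes (grey). The steps ran from -1.39 z (Cdk18) to 0.61 z (Rad50), while the grey points lay between -0.19 and 0.16 z.

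With the median of each class of spots taken off, 12 of the 18 genes differed between the sets, among 66.8% of all rows. The step of Cdk18 was then -0.86 z, that of Mcm10 -0.56 z and that of Rad50 0.23 z. Rad1, with a step of 0.00206 z before, then had -0.38 z.

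The running numbers also form 5 rounds (1 to 14, 15 to 28, 29 to 41, 42 to 55 and 56 to 67), each with at most 1 mouse of each of the 14 groups; the labels do not call them batches. With groups and set as terms, 2 of the 18 genes differed between rounds at adjusted p under 0.05 by limma, among 13.6% of all rows. Pold1 had means of 0.36, 0.45 and 0.67 z in the first 3 rounds, all within the first set, and Ccng1 0.219, 0.0575 and 0.0369 z. With the round as a further term, none of the 18 passed in any comparison, and counts at an unadjusted p under 0.05 that it moved by over 1.5 times are given below.

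Within a group and set, the SD between mice had a median of 0.135 z over the 18 genes, from 0.0928 z for Mcm3 to 0.197 z for Cdk18. The array of replicate 5 of the 24-month AL females, running number 67, held the largest deviation from group and set for 7 of the 54 genes, more than any other array, and for 3 of the 18. Results that rest on it are given without it too. The free description of replicate 2 of the 24-month AL males is that of a 1-month mouse, also given for the first array of the series, while its title and characteristics, which were followed, give 24 months. A named difference that moved by over 1.5 times without it is given below.

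**Figure D3:**
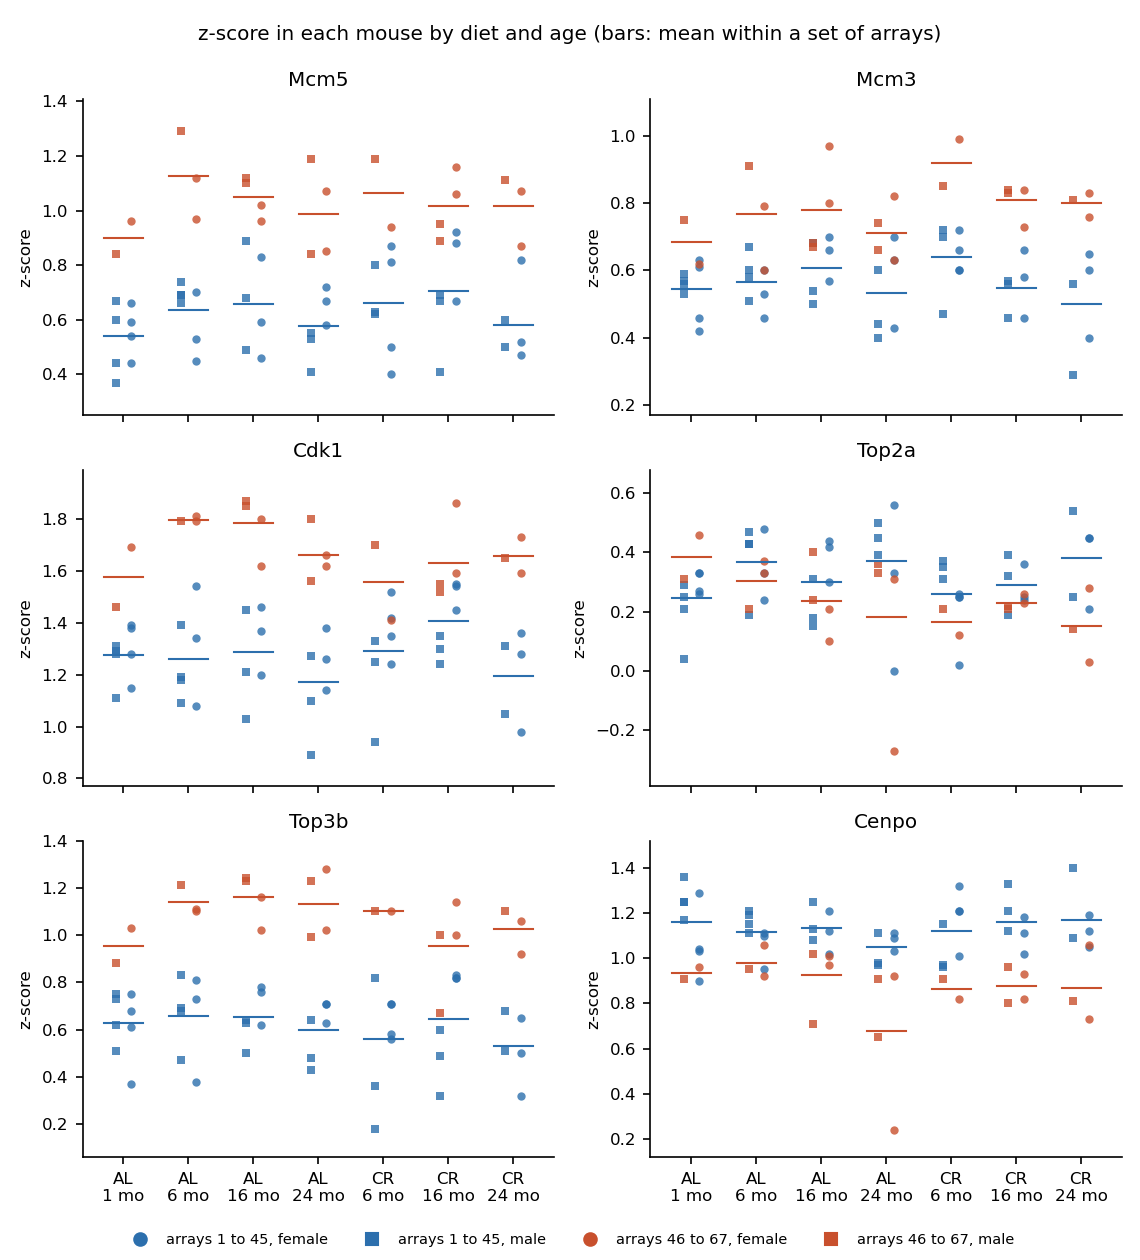
z-score of 6 genes in each mouse by diet and age in months; circles are females, squares males, blue the first and red the second set of arrays, and bars the mean of each set in a group. The distance between the sets exceeded the distances between groups for Mcm5, Cdk1 and Top3b, and the lowest array of Cenpo was that of a 24-month AL female at 0.24 z.

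The comparison of 1 with 6 months asks how young cortex, in which glia still multiply, differed from adult cortex. From 1 to 6 months in AL mice, 11 of the 18 genes were nominally higher and 7 lower at 6 months, with a median difference of 0.0202 z, against 0.00679 z over all 3600 rows tested. None passed at adjusted p under 0.05 by limma, nor did any of all rows (0%). At unadjusted p under 0.05, 1 of the 18 was counted, against 3.47% of all rows. That gene was Mcm5, and its difference pointed to more and not less signal at 6 months. At 1 month Mcm5 had a lowest value of 0.37, a median of 0.595 and a highest of 0.96 z, and at 6 months 0.45, 0.695 and 1.29 z. With both sets of arrays together, the groups overlapped over most of their range, and they overlapped within the first set. In the second set they did not, with 0.84 and 0.96 z at 1 month and 0.97, 1.12 and 1.29 z at 6 months. The fitted difference was 0.131 ± 0.0560 z (SE; 95% CI 0.0175 to 0.244; limma, adjusted p = 0.999), with 0.0888 z in the first set and 0.27 z in the second.

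Next by p came Ccnb1ip1 (0.0856 ± 0.0515 z), Cdk7 (0.0888 ± 0.0552 z), Top2a (0.0792 ± 0.0658 z) and Rad50 (-0.0802 ± 0.0726 z), and none passed. The 95% CIs of the 18 genes together reached from -0.23 to 0.24 z. Top2a, a usual mark of dividing cells, had a lowest value of 0.04, a median of 0.28 and a highest of 0.46 z at 1 month, and 0.19, 0.35 and 0.48 z at 6 months. Its groups overlapped, and its CI was -0.0537 to 0.212 z. Cdk1 spanned 1.11 to 1.69 z around a median of 1.30 z at 1 month, and 1.08 to 1.81 z around 1.365 z at 6 months.

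The mice labelled 1 month fall into 5 of 17 to 21 days and 5 of 33 to 44 days. Over the older against the younger of them, 7 genes were nominally higher and 11 lower, with a median of -0.0102 z against -0.00603 z over all rows. None passed after adjustment, as among all 3600 rows (0%), and 1 of 18 had an unadjusted p under 0.05, against 1.72% of all rows. This was Top3b. At 17 to 21 days it had 0.61, 0.68, 0.75, 0.75 and 0.62 z, all in the first set. At 33 to 44 days it had 0.73, 0.51 and 0.37 z in the first set and 0.88 and 1.03 z in the second. In the first set, 2 of the 3 older mice were below all 5 of the younger. The difference with the set as a term was -0.187 ± 0.0836 z (limma, adjusted p = 1), and in the first set alone -0.17 z. The plain means were 0.682 z in the younger and 0.704 z in the older mice, and without the set as a term the difference was 0.0208 z, of the opposite sign.

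Orc2 came next, with 0.135 ± 0.0742 z (adjusted p = 1). Its values at 17 to 21 days were 0.26, 0.255, 0.09, 0.235 and 0.125 z, and at 33 to 44 days 0.62, 0.24, 0.24, 0.43 and 0.33 z. The highest 3 values were of older mice, and the remaining older mice lay within the range of the younger. Of those 3, the values 0.43 and 0.33 z were of the second set, in which Orc2 was higher by 0.0934 ± 0.0297 z. All younger mice were of the first set. The value 0.62 z was of replicate 1 of the males, the first array of the series, and without it the difference was 0.0613 z. After Orc2 came Cdc42ep5 (-0.108 z), Pold1 (-0.112 z) and Mcm5 (-0.0800 z). The CIs of the 18 genes reached from -0.36 to 0.29 z, wider than in any other comparison of groups.

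Ageing was followed over adult life in AL mice, and none of the 18 genes passed between any ages. From 6 to 16 months, 11 were nominally higher and 7 lower, with a median of 0.00229 z, against -0.00127 z over all 3610 rows tested. None passed and none had an unadjusted p under 0.05, against 0% and 2.71% of all rows. The differences ran from -0.0613 to 0.0674 z. The smallest p belonged to Ccng1 (0.0674 ± 0.0556 z), Rad1 (0.0573 ± 0.0507 z), Top2a (-0.0613 ± 0.0604 z), Cdc42ep5 (-0.0448 ± 0.0669 z) and Mcm3 (0.0289 ± 0.0468 z).

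From 16 to 24 months, 7 genes were nominally higher and 11 lower in AL mice, with a median of -0.035 z against -0.019 z over all rows. None passed by limma, in common with all rows (0%), and 1 of 18 had an unadjusted p under 0.05, against 14.6% of all rows. This was Cenpo. At 16 months it had a lowest value of 0.71, a median of 1.05 and a highest of 1.25 z, and at 24 months 0.24, 0.975 and 1.11 z. The ranges overlapped, with 2 arrays of 24 months, at 0.24 and 0.65 z, below all of 16 months and 4 arrays of 16 months above all of 24 months. The difference was -0.151 ± 0.0610 z (95% CI -0.273 to -0.0287; limma, adjusted p = 0.277). Without the array with 0.24 z it was -0.0884 ± 0.0531 z (adjusted p = 0.636). That array moved with much else: without it, 7.98% of all rows had an unadjusted p under 0.05, and none of the 18 genes.

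Ccng1 followed with -0.11 ± 0.0555 z (adjusted p = 0.349), from a median of 0.0825 z at 16 months to 0.01 z at 24 months. This is the mean of its 2 probes, and the probe above 0, taken alone, had -0.07 ± 0.0729 z. Rad1 had -0.099 ± 0.0506 z (adjusted p = 0.351). Its 10 values at 16 months lay between 1.11 and 1.26 z, and those at 24 months between 0.99 and 1.20 z, so that the lower values were of old mice and the groups still overlapped. Cdk1 (-0.118 ± 0.0678 z) and Mcm3 (-0.072 ± 0.0467 z) came next. Cdk1 spanned 1.03 to 1.87 z around a median of 1.455 z at 16 months and 0.89 to 1.80 z around 1.325 z at 24 months. With the round as a term, Cenpo, Ccng1 and Rad1 had an unadjusted p under 0.05, against 16.1% of all rows, and the lowest adjusted p was 0.243; 2 of all rows passed, neither of them among the 18.

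From 6 to 24 months in AL mice, 6 genes were nominally higher and 12 lower, with a median of -0.0385 z against -0.0214 z over all rows. None passed (0% of all rows), and 1 of 18 had an unadjusted p under 0.05, against 7.98% of all rows. This was again Cenpo, whose 24-month group is shared with the comparison above, with -0.148 ± 0.0611 z (limma, adjusted p = 0.554). Without the array with 0.24 z it was -0.0885 ± 0.0531 z (adjusted p = 0.995). Mcm10 was then the 1 gene of 18 with an unadjusted p under 0.05, against 3.77% of all rows. Its difference was 0.144 ± 0.0712 z (limma, adjusted p = 0.995), against 0.115 ± 0.0710 z with all arrays. Ccnb1ip1 (-0.105 ± 0.0549 z), Mcm5 (-0.0839 ± 0.0603 z) and Cdk1 (-0.0933 ± 0.0679 z) completed the 5 smallest p. Without replicate 2 of the 24-month males, whose description is of a 1-month mouse, Cdk1 had -0.0581 z. With the round as a term, Ccnb1ip1 and Cenpo had an unadjusted p under 0.05, against 10.8% of all rows. Top2a had medians of 0.35, 0.27 and 0.345 z at 6, 16 and 24 months, and its range at 24 months, -0.27 to 0.56 z, held the ranges at both other ages.

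**Figure D4:**
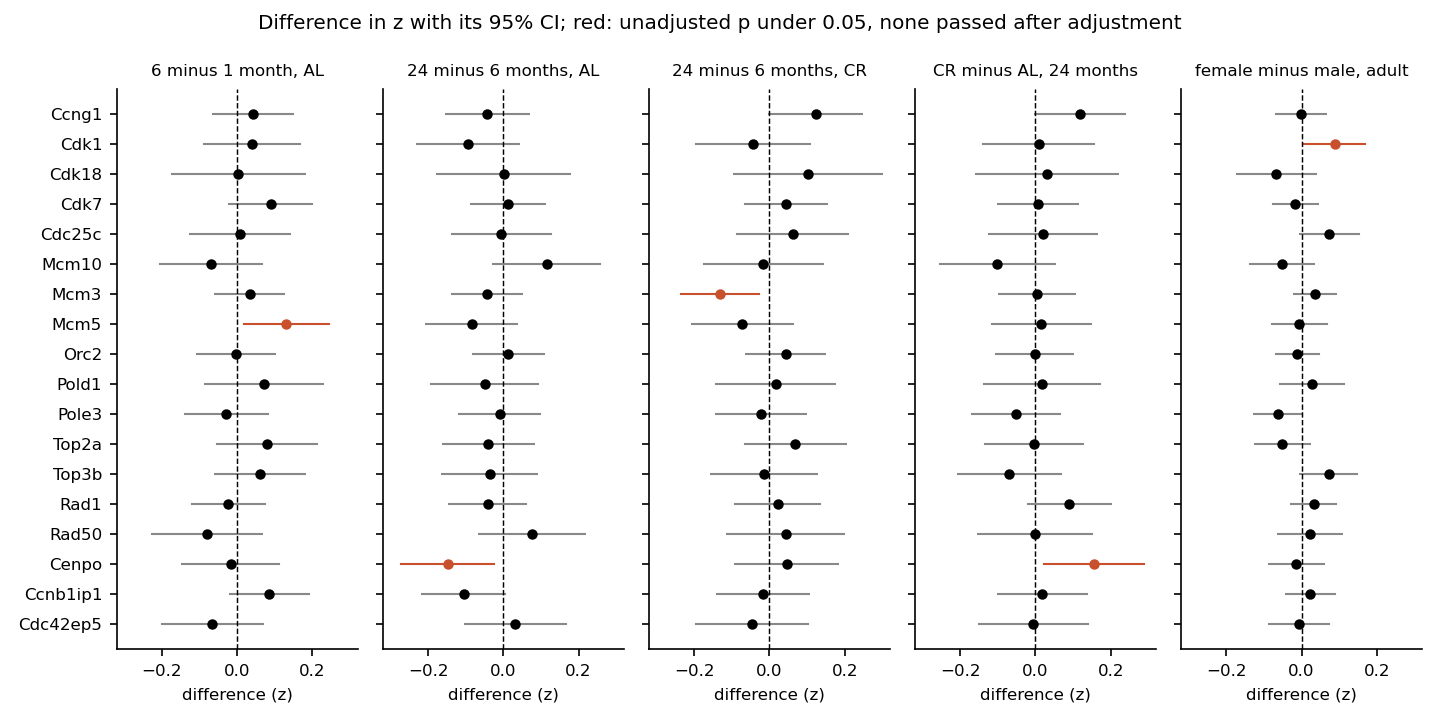
Difference in z with its 95% CI for the 18 tested genes in 5 comparisons, ordered by role; red marks an unadjusted p under 0.05. Red marks Mcm5 from 1 to 6 months, Cenpo in both panels with 24-month AL mice, Mcm3 in restricted mice and Cdk1 between the sexes, and none of them passed after adjustment.

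In restricted mice, 10 genes were nominally higher and 8 lower at 24 than at 6 months, with a median of 0.0192 z against 0.0103 z over all rows. None passed by limma, as among all rows (0%), and 1 of 18 had an unadjusted p under 0.05, against 3.74% of all rows. This was Mcm3. In the 9 restricted mice of 6 months it had a lowest value of 0.47, a median of 0.70 and a highest of 0.99 z, and in the 8 of 24 months 0.29, 0.625 and 0.83 z. With both sets together the groups overlapped, with 2 old mice, both of the first set, below all the young. Within the first set they overlapped too. In the second set they did not, with 0.85 and 0.99 z at 6 months and 0.76, 0.81 and 0.83 z at 24 months. The difference was -0.132 ± 0.0520 z (95% CI -0.236 to -0.0275; limma, adjusted p = 0.992), with -0.15 z in the first set and -0.117 z in the second. Without replicate 2 of the 24-month restricted males it was -0.0833 z. In AL mice the same span gave -0.0431 z for Mcm3, and the difference between the diets did not pass (-0.0885 ± 0.0698 z, adjusted p = 0.681), with -0.0410 z without the same male.

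Ccng1 (0.123 ± 0.0617 z, adjusted p = 0.992), Mcm5 (-0.0716 ± 0.0670 z), Cdk18 (0.103 ± 0.0976 z) and Top2a (0.0686 ± 0.0670 z) followed. Ccng1 had a median of 0.04 z at 6 months and 0.075 z at 24 months in restricted mice, with 1 mouse of 24 months at 0.425 z. Without that mouse, replicate 1 of the restricted males, its difference was 0.0696 z. With all mice, the probe of Ccng1 above 0, taken alone, had 0.184 ± 0.0811 z.

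Diet was compared at each adult age, and none of the 18 genes passed. At 6 months, 6 genes were nominally higher in CR than in AL mice and 12 lower, with a median of -0.0389 z against -0.0122 z over all rows. None passed and none had an unadjusted p under 0.05, against 0% and 3.82% of all rows. Mcm3 (0.0918 ± 0.0482 z), Top2a (-0.112 ± 0.0622 z), Top3b (-0.0918 ± 0.0648 z), Ccnb1ip1 (-0.0702 ± 0.0565 z) and Cdc42ep5 (0.0738 ± 0.0689 z) had the smallest p. Top2a spanned 0.02 to 0.37 z around a median of 0.25 z in restricted mice and 0.19 to 0.48 z around 0.35 z in AL mice, with overlap of most arrays.

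At 16 months, 7 were nominally higher and 11 lower under restriction, with a median of -0.00725 z against 0.003 z. None passed and none had an unadjusted p under 0.05, against 0% and 1.33% of all rows. Cdc25c (0.111 ± 0.0659 z), Top3b (-0.089 ± 0.0628 z), Ccnb1ip1 (0.063 ± 0.0548 z), Pole3 (-0.057 ± 0.0537 z) and Rad50 (-0.048 ± 0.0700 z) had the smallest p.

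At 24 months the restricted males were all 673 days old and the AL males 714 to 743 days. In these males diet and age in days cannot be told apart. Of the 18 genes, 11 were nominally higher under restriction and 7 lower, with a median of 0.00702 z against 0.0163 z over all rows. None passed (0% of all rows), and 1 of 18 had an unadjusted p under 0.05, against 10.5% of all rows. This was Cenpo, with 0.73, 1.075 and 1.40 z as its lowest, median and highest value in 8 restricted mice and 0.24, 0.975 and 1.11 z in 10 AL mice. The difference was 0.155 ± 0.0659 z (95% CI 0.0233 to 0.287; limma, adjusted p = 0.396). Without the array with 0.24 z it was 0.0938 ± 0.0571 z (adjusted p = 0.798), and then none of the 18 genes and 6.29% of all rows had an unadjusted p under 0.05. Ccng1 (0.119 ± 0.0600 z, adjusted p = 0.478), Rad1 (0.0902 ± 0.0546 z), Mcm10 (-0.101 ± 0.0765 z) and Top3b (-0.0695 ± 0.0679 z) came next. For Ccng1 the difference without replicate 1 of the 24-month restricted males was 0.0673 z.

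The effect of restriction at 24 months against that at 6 months gave 13 genes with a positive and 5 with a negative value, with a median of 0.0416 z against 0.0305 z over all rows. None passed (0% of all rows), and Cenpo alone had an unadjusted p under 0.05, against 9.34% of all rows, with 0.194 ± 0.0911 z (limma, adjusted p = 0.508). Without the array with 0.24 z it was 0.13 ± 0.0780 z. Ccng1 (0.165 ± 0.0829 z), Mcm3 (-0.0885 z, as above), Mcm10 (-0.132 ± 0.106 z) and Top2a (0.109 ± 0.0900 z) followed. Without the same array, running number 67, Top2a had 0.0579 z. With the round as a term, Ccng1 joined Cenpo at an unadjusted p under 0.05, against 10.6% of all rows.

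Between 30 adult females and 27 adult males, 8 genes were nominally higher in females and 10 lower, with a median of -0.00404 z against -0.00254 z over all rows. This comparison had the narrowest CIs, with a median of 0.0728 z on each side. None passed (0% of all rows), and 1 of 18 had an unadjusted p under 0.05, against 8.01% of all rows. This was Cdk1, with a lowest value of 0.98, a median of 1.455 and a highest of 1.86 z in females and 0.89, 1.31 and 1.87 z in males. The sexes overlapped over almost the whole range. The difference was 0.0885 ± 0.0406 z (95% CI 0.00708 to 0.170; limma, adjusted p = 0.594). In the first set, 19 females had a mean of 1.34 z and 18 males 1.20 z, a fitted difference of 0.141 ± 0.0508 z. In the second set, 11 females had 1.68 z and 9 males 1.70 z, a fitted difference of -0.045 ± 0.0552 z. Without replicate 2 of the 24-month AL males the difference was 0.0775 z, and none of the 18 genes had an unadjusted p under 0.05. Pole3 (-0.0622 ± 0.0322 z), Top3b (0.0721 ± 0.0376 z), Cdc25c (0.0741 ± 0.0395 z) and Top2a (-0.0511 ± 0.0361 z) followed, and the difference of Top3b was 0.117 z in the first set and -0.0142 z in the second. With the round as a term, Cdk1, Cdc25c and Pole3 had an unadjusted p under 0.05, against 8.12% of all rows.

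The sex difference at 24 months against that at 6 months was positive for 7 genes and negative for 11, with a median of -0.0418 z against -0.0126 z over all rows. None passed and none had an unadjusted p under 0.05, against 0% and 0.72% of all rows. Mcm5 (0.144 ± 0.0899 z), Mcm3 (0.108 ± 0.0698 z), Cdk18 (-0.186 ± 0.131 z), Rad1 (0.0706 ± 0.0755 z) and Ccng1 (-0.0760 ± 0.0829 z) had the smallest p. Without running number 67, Cdk18 had -0.0982 z. The probe of Ccng1 above 0, taken alone, had -0.221 ± 0.109 z. Over all 12 comparisons the differences of the 18 genes lay between -0.187 and 0.194 z. In each of them at most 1 gene had an unadjusted p under 0.05, and with the round as a term at most 3. Of the 60 differences named as the 5 with the smallest p, 32 moved by over 1.5 times when a single array was left out, by at most 0.112 z, and none of them had passed.

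The 36 genes below 0 were too dim for the tests and are given by their levels. Ccnd2, a cyclin of precursor cells in the brain, had medians of -0.555, -0.705, -0.685 and -0.68 z at 1, 6, 16 and 24 months in AL mice, and its mean was -0.56 z in the first set and -1.10 z in the second. At 17 to 21 days its 5 values, all in the first set, lay between -0.61 and -0.45 z. The share of arrays of the second set was lowest at 1 month among the AL groups. Age and set are therefore not separated in the medians of Ccnd2. Cdkn1b, which holds cells out of division, had medians of -0.21, -0.11, -0.16 and -0.22 z at the same ages. Cdc25a had medians between -0.89 and -0.783 z in the 7 groups of age and diet, with 1 array at 0.157 z among 16-month AL females.

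With no limit on level, all 54 genes could be fitted with 7565 rows, and none passed in any comparison. From 16 to 24 months in AL mice, 5 of the 54 had an unadjusted p under 0.05, against 13% of all rows. The smallest was that of Cdc27, named here after its values were seen. It had a lowest value of -1.57, a median of -1.41 and a highest of -1.23 z at 16 months, and -1.39, -1.225 and -0.78 z at 24 months. Its groups overlapped, with the highest arrays all of old mice. The difference was 0.24 ± 0.0732 z (limma, adjusted p = 0.254), and 0.236 z without the array with 0.24 z for Cenpo. In the 8 restricted mice of 24 months Cdc27 had a median of -1.41 z, with 1 mouse at -0.57 z. Cenpa, also named afterwards, had medians of -4.08 z in restricted mice of 6 months and -3.27 z in those of 24 months, a difference of 0.824 ± 0.278 z (limma, adjusted p = 0.778), with 0.88 z in the first set and 0.71 z in the second. In AL mice its medians at the same ages were -3.77 and -3.80 z.

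Single arrays stood far out among the dim genes. Cenpj, a centriole protein, had 1.19 z in replicate 1 of the 1-month males, the first array of the series, against a mean of -1.32 z. Pole4 had 0.84 z in the same array, against a mean of -0.35 z. That array held the largest deviation for 6 of the 54 genes.

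Other genes of replication and division were taken from a list chosen by function. Of its 103 genes, 55 were on the array and 26 of these were above 0, against 42.4% of all genes with a single symbol. Among the 26 were Mki67, Pcna and Birc5, marks of dividing cells, and Fen1, Rpa1 and Rpa2 of the fork. Rb1, E2f7 and E2f8 of the control of entry into the cycle were also among them. The rest of the 55 lay at or below 0. They included Aurka, Aurkb, Plk1, Bub1b, Kif23 and Tk1, also genes of dividing cells, and Lig1, Rrm1 and Chek1. None of the 26 passed in any of the 12 comparisons by limma. At an unadjusted p under 0.05, 4 were higher and 1 lower in females, against 8.01% of all rows. In restricted mice of 6 months 3 were lower and 0 higher, against 3.82%. From 16 to 24 months 2 were higher and 1 lower, against 14.6%, and under restriction at 24 months likewise, against 10.5%. From 1 to 6 months 2 were higher and 0 lower, against 3.47%. There, 15 of the 26 were nominally higher at 6 months, with a median of 0.00483 z, against 54.3% and 0.00679 z over all rows. The smallest p there belonged to Nek2, a kinase of the centrosome (0.163 ± 0.0612 z), Myc (0.137 ± 0.0618 z) and Rpa2 (-0.0625 ± 0.0503 z). From 16 to 24 months they belonged to Plk4, the kinase of centriole duplication (-0.149 ± 0.0579 z), Ncapg, a condensin subunit (0.338 ± 0.137 z), and Gins4, which binds the helicase (0.137 ± 0.0592 z). Between CR and AL mice of 24 months, which share the AL group with that comparison, Plk4 had 0.169 ± 0.0625 z, Fen1 -0.113 ± 0.0521 z and Mdm2 0.105 ± 0.0499 z.

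Markers of cell types were looked up on the array. It held 4 of 16 listed for neurons, 3 of 12 for astrocytes, 3 of 14 for oligodendrocytes and 3 of 9 for endothelial cells. Such markers are not particular to cortex, so they cannot check the labelled region. Of all genes with a single symbol, 42.4% were above 0. All 4 neuronal markers (Snap25, Stmn3, Tubb3 and Uchl1) and all 3 astrocyte markers (Aldoc, Cst3 and Glul) had a mean z above 0, as did Car2 and Fth1 of 3 for oligodendrocytes and Pecam1 of 3 for endothelial cells. Pdgfra of oligodendrocyte precursors and the red cell marker Hba-a2 lay below 0, and no microglial marker was matched. None of these markers passed in any comparison. From 16 to 24 months in AL mice, 3 of the 4 neuronal markers were nominally lower and 1 higher, with a median difference of -0.121 z and a range of -0.213 (Stmn3) to 0.004 z. Of the astrocyte markers Glul had 0.124 ± 0.0557 z, and the others reached down to -0.081 z (Aldoc). Of the oligodendrocyte markers Fth1 had 0.138 ± 0.0518 z and Car2 -0.031 z, and Pecam1 had 0.021 z. Over all rows 41.7% were higher. Markers of neurons thus lay mostly on the lower side, as did most rows, and those of glia on both. Between CR and AL mice of 24 months, which share the AL group with that comparison, 3 of the 4 neuronal markers were nominally higher and 1 lower, with a median of 0.0756 z and a range of -0.0414 to 0.186 z. Over all rows 56.6% were higher in that comparison. Glul had -0.147 ± 0.0602 z there, Fth1 -0.104 ± 0.0560 z, Car2 0.0461 z and Pecam1 0.0863 z. The shared AL group holds running number 67, and marker values without that array are not given. The part of these cell types in the values of Cenpo, Ccng1 and Rad1 in both comparisons was not tested.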

How the data were processed

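The authors labelled the cDNA of each cortex with a radioisotope and hybridised it to a cDNA filter, the one called A of 2. They deposited a score per spot, the z-score within each array, for 8448 spots and 67 arrays. Whether intensities were logged first is not given in the sources used here, so no folds are given. Probes of a gene with a single symbol (4788 probes; 212 had several, 3448 none) were averaged, giving 7565 rows. Rows with a mean z above 0 were tested in limma 3.58.1 (R 4.3.3), two-sided, with a mean per group, sexes weighted equally, and Benjamini-Hochberg adjustment over all rows. The 57 adult arrays served 10 of the 12 comparisons, and the 40 AL arrays those with 1-month mice. The study's methods have no term for the set of arrays; it was added because of a step known between running numbers 45 and 46. The members, lists, tests and named genes were chosen with earlier results of these data known. Named genes were those past adjusted p < 0.05, or else the 5 with the smallest p in each comparison, the 5 with the highest mean z (Cdk18, Cdk1, Ccnb1ip1, Rad1 and Cenpo, a choice for naming and not a ranking of expression), genes with 3 or more probes, and Top2a, Cdk1, Ccnd2 and Cdkn1b of a fixed list. Replicates are separate mice. The number of arrays limits precision. The scripts were tested on simulated data. The figures came from matplotlib 3.10.9 in Python 3.11.15.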

Additional observations from a re-analysis of the deposited data

Results flagged for a closer look

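By Dixon's criterion, 4 values stood apart from the other 4 mice of their group of age, diet and sex. The criterion was applied to 65 groups over 5 genes (Mcm3, Mcm5, Cdk1, Cenpo and Top3b). These genes were taken because they had an unadjusted p under 0.05 by limma in a comparison of the same data. Chance flags about 5% of groups drawn from a single population. The groups here mix both sets of arrays, so that rate does not apply to them. Cenpo had 0.24 z in replicate 5 of the 24-month AL females (running number 67), against 0.92 to 1.11 z in the others. Mcm3 had 0.75 z in replicate 5 of the 1-month AL males, against 0.53 to 0.59 z. Mcm5 had 1.29 z in replicate 5 of the 6-month AL males, against 0.66 to 0.74 z. Top3b had 1.1 z in replicate 5 of the 6-month restricted females, against 0.56 to 0.71 z. The last 3 arrays were each the only array of the second set in their group, and these 3 genes were all higher in that set.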

How the results depend on the processing

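None of the genes tested passed in any comparison under any other setting. All 54 were tested with no limit on level, 25 with centred spot classes, 20 with only probes above 0, 20 single probes, 17 in the second set alone and 18 in the others, which were the first set alone, no term for the set of arrays, array weights, quantile normalization, a robust prior with a trend, and each array left out. The z-ratio rule of the methods, which has no form for the interactions, called none of those above 0 either. As applied here it has no term for the set, so the steps between sets count in its spread. Among all 7565 rows it called between 20 and 153 in a comparison, and no conclusion is drawn from its count of 0. Single values turned their sign, none of them past the threshold. In arrays 46 to 67 alone, Cdk7 and Top2a had -0.005 and -0.105 z from 1 to 6 months, Rad1 and Mcm3 -0.01 and -0.0225 z from 6 to 16 months, Top2a -0.0175 z from 6 to 24 months in restricted mice, Cdk1 and Top3b -0.045 and -0.0142 z between the sexes, Mcm10 0.0925 z for the diet effect at 24 against 6 months and Rad1 -0.03 z for the sex difference at 24 against 6 months. Without the set term, Top3b and Mcm5 had 0.0208 and 0.101 z for 33 to 44 against 17 to 21 days and Cdk18 -0.0959 z from 6 to 24 months in restricted mice. With centred spot classes, Mcm3 had -0.0168 z from 6 to 16 months. Leaving out single arrays moved Cdc42ep5 from 6 to 16 months between -0.0690 and 0.000424 z. The cause was not tested. The second set could not be fitted alone for 33 to 44 against 17 to 21 days, since no mouse of 17 to 21 days is in it. The labels give no replicate numbers that tie mice together. With the round of running numbers as a replicate block beside the set, 0 of the 18 genes passed in each of the 12 comparisons. Deviations from group and set correlated with a median of 0.0495 within rounds and -0.0292 between them. The fits with the round, the share of genes above 0 with centred spot classes over all genes, the fits without running number 67 with no limit on level, and the step between sets with centred spot classes were chosen after seeing the data.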
